A study of Mus musculus with 6 samples.

Results

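Small RNA host genes are genes whose transcripts carry microRNAs or small nucleolar RNAs (snoRNAs), and most of those described here are annotated as long non-coding. They were taken from the counts of 6 mouse hearts as every gene named Mir followed by a number and ending in hg, Snhg followed by a number, or Gas5. Of 57180 genes, 33 gene IDs carried such a name, and 26 of them had 10 or more counts over the 6 hearts. Of these 26, 9 were microRNA hosts and 17 were snoRNA hosts by name. The other 7 IDs stayed under 10 counts, and 4 of them (Mir217hg, Mir9-3hg, Mir205hg and Mir124-2hg) had no count in any heart.

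Hearts came from male C57BL/6N mice aged 6 to 8 weeks, all without food and water during the experiment. The 3 sham mice stayed at 22 to 25°C and 60 to 65% humidity. The 3 mice of the heat stroke (HS) group were kept at 40°C and the same humidity until the core temperature reached 42°C and were then moved back to room conditions. Each heart gave 1 library of poly(A)-selected RNA, so the counts measure the polyadenylated host transcripts and not the small RNAs cut from them.

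A microRNA is cut out of a hairpin in its host transcript and then guides Argonaute proteins to messenger RNAs that match its seed, the bases from position 2 to 8. Where the hairpin lies in an exon, cutting it out destroys that copy of the spliced host RNA; where it lies in an intron, host RNA and microRNA can both be made from the same transcript. Most snoRNAs are released from the introns of their hosts after splicing. Box C/D snoRNAs guide the methylation of riboses in ribosomal RNA, and H/ACA snoRNAs guide the change of uridine to pseudouridine. The spliced exons of many snoRNA hosts are read by ribosomes and removed by nonsense-mediated decay, which makes their level sensitive to translation.

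The microRNA hosts of the heart differ in how many microRNAs they carry. Mir22hg holds the hairpin of miR-22, a microRNA abundant in heart and skeletal muscle, in an exon. Mir17hg holds 6 hairpins of a cluster known for its role in cell proliferation, also in exonic sequence. Mir142hg holds in an intron the hairpin of miR-142, a microRNA of blood cells. Mir99ahg (miR-99a, let-7c and miR-125b) and Mir100hg (miR-100, let-7a and miR-125b) are long genes that each hold 3 hairpins in introns. The mature sequences below (RefSeq, GRCm38.p6) are shown because they are part of what these hosts can supply, and the seed is in capitals.
miR-22-3p: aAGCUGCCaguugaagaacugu
miR-142a-5p: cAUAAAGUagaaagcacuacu
miR-142a-3p: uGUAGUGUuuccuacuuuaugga
miR-17-5p: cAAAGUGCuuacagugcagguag
miR-20a-5p: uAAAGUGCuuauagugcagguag
miR-18a-5p: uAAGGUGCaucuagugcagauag
miR-19a-3p: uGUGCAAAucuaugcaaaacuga
miR-19b-3p: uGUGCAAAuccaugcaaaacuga
miR-92a-3p: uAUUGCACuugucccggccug
miR-99a-5p: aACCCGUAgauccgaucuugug
miR-100-5p: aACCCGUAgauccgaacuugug
miR-125b-5p: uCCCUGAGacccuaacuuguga
let-7c-5p: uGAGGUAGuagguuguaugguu

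Within Mir17hg, miR-17-5p and miR-20a-5p share the seed AAAGUGC, and miR-19a-3p and miR-19b-3p share GUGCAAA. Across genes, miR-99a-5p of Mir99ahg and miR-100-5p of Mir100hg share the seed ACCCGUA. The mature let-7a-5p of Mir100hg was missing from the sequences at hand, so its seed was not compared with that of let-7c-5p. The mature miR-125b-5p is encoded in both Mir99ahg and Mir100hg, so 2 host genes on different chromosomes can supply the same microRNA. The seeds of miR-22-3p, miR-142a-5p and miR-142a-3p are each found in 1 of these host genes.

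The snoRNA hosts were grouped by the box type of the snoRNAs annotated inside them. Of the 17 kept hosts, 7 held only H/ACA snoRNAs, 7 only C/D snoRNAs, 1 both types (Snhg12) and 2 a small Cajal body RNA (Snhg20 and Snhg10). Snhg4 and Snhg14 also held annotated snoRNAs that could not be assigned to a type, 1 and 3 of them. The class follows the gene name, and Snhg4, Snhg20 and Snhg10 also held annotated microRNA genes (2, 1 and 1). Unnamed snoRNA genes were assigned by sequence, as C/D where at most 100 bases long with CTGA among the last 14 bases, and as H/ACA where longer with ACA among the last 9. The 4 sequences below (GENCODE vM21, GRCm38) show what separates the types. The capitals mark the ACA box near the end of the H/ACA RNAs, and the C box (TGATGA) and the D box (CTGA) of the C/D RNAs.
Snora17 of Snhg7, chr2:26639190-26639321, minus strand: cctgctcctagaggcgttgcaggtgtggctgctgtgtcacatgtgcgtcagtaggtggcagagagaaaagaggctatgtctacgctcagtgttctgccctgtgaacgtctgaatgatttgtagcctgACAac
Snora73a of Snhg3, chr4:132352775-132352979, minus strand: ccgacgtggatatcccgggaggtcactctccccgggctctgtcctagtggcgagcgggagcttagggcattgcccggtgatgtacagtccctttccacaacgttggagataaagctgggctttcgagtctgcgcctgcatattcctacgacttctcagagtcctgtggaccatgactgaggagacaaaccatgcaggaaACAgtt
Snord47 of Gas5, chr1:161038082-161038158, plus strand: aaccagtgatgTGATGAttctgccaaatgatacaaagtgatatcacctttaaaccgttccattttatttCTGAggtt
Snord50a of Snhg5, chr9:88521529-88521600, minus strand: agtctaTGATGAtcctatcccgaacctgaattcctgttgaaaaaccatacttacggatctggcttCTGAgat

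Library totals ran from 22098531 to 25855918 counts, and a count of 3, the limit that a count of 0 allows, was worth 0.108 to 0.152 CPM, the count per 1e6 counts of the library. All host genes together took 90.1 to 144 CPM before scaling. HS heart 3 stood apart, with genes differing by 0.468 to 0.57 log2 units from the other hearts on average in absolute terms, where the rest differed by 0.233 to 0.361 among themselves. The atrial marker score (mean log2 CPM of 7 markers) was 7.72 and 7.35 in HS hearts 1 and 3 and 1.87 to 3.04 in the other 4 hearts, so HS heart 2 is the HS heart without that signal. Mitochondrial ribosomal RNA made up 1.67 to 1.69% of counts in sham hearts and 2.75 to 5.55% in HS hearts. Values with HS heart 2 alone are given where they change the direction or the call of a host gene. With the atrial marker score as a covariate, 0 host genes passed after adjustment. The part of the ribosomal RNA share in the results was not tested. In bulk tissue, fewer cells of a type and less RNA per cell cannot be told apart.

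Of the 26 host genes, 22 had enough counts for edgeR's quasi-likelihood test (6 microRNA hosts and 16 snoRNA hosts), which was fitted over 14717 genes. At a Benjamini-Hochberg adjusted p under 0.05, 0 host genes were lower and 0 were higher, where the background over all tested genes was 0.00679% lower and 0.0544% higher (0.0612% in either direction). At an unadjusted p under 0.05, 6 host genes were lower in HS hearts (27.3%, background 4.76%) and 0 were higher (background 8.83%). At the thresholds of the study (a log2 fold change over 1 in size at an unadjusted p under 0.05), 4 were lower (background 0.707%) and 0 higher (background 3.18%). DESeq2 called 4 host genes lower after adjustment (Snhg7, Mir22hg, Mir17hg and Snhg17) and 0 higher, where its background was 0.523% lower and 1.86% higher. In 7 of the 22 genes (31.8%) every HS heart lay below every sham heart, against a background of 10.9%, and in 0 genes every HS heart lay above (background 11%). With HS heart 2 alone against the sham hearts, 8 of 25 tested host genes were lower at an unadjusted p under 0.05 (background 5.54%) and 0 higher (background 6.16%). The log2 fold change was below 0 in 15 of 22 host genes and in 48.7% of all tested genes.

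**Figure D1:**
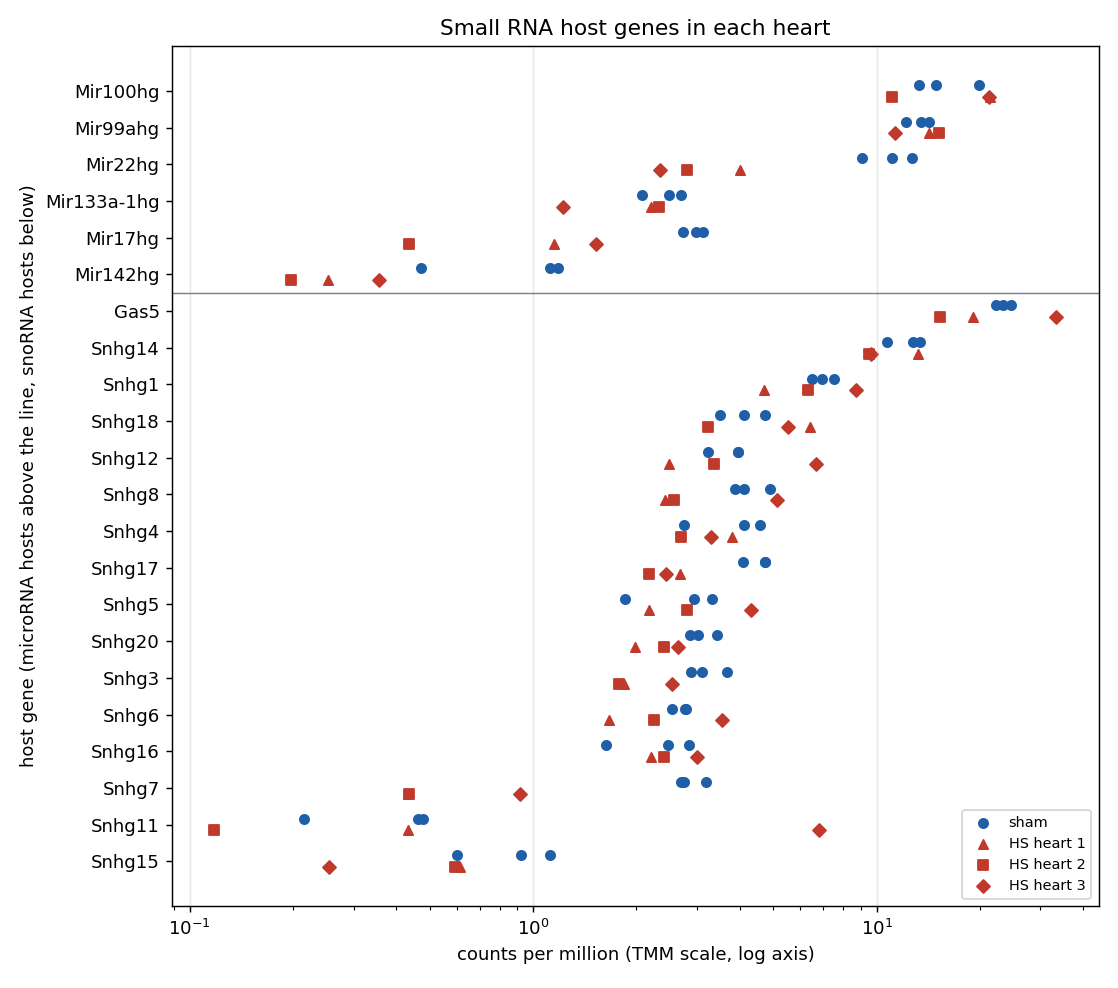
CPM of the 22 tested host genes in each heart, on a log axis, with microRNA hosts above the line and snoRNA hosts below it. Blue circles are the 3 sham hearts, and red triangles, squares and diamonds are HS hearts 1, 2 and 3. In Mir22hg, Mir17hg, Mir142hg, Snhg7, Snhg17, Snhg3 and Snhg20 the red and blue points do not overlap, and in Snhg11 only HS heart 3 lies far to the right.

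Among the microRNA hosts, Mir22hg (ENSMUSG00000085148, chr11:75461539-75466676, plus strand) had 12.7, 11.1 and 9.1 CPM in sham hearts 1, 2 and 3. In HS hearts 1, 2 and 3 it had 4.01, 2.8 and 2.34 CPM. All HS hearts lay below all sham hearts, and HS heart 2, without the atrial signal, lay between the other 2. The mean was 11 ± 1.81 CPM in sham and 3.05 ± 0.86 in HS hearts (SD, n = 3 each), which is 3.57-fold lower in HS (log2 fold change -1.84, SE 0.23, unadjusted p = 6.37e-05). Its adjusted p was 0.0782 with all 6 hearts. It was 0.0409, 0.0327 and 0.0114 without HS heart 1, 2 or 3, but 0.452, 0.553 and 0.311 without sham heart 1, 2 or 3. The difference was -1.97 with HS heart 2 alone against the sham hearts (adjusted p = 0.00722). Over all 14 alternatives the adjusted p ran from 3.7e-09 to 0.578 and the log2 fold change from -2.09 to -1.68.

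Of the 2 Mir22hg transcripts, ENSMUST00000149940 took 95.7% of the gene's counts in sham and 97.7% in HS hearts. This transcript itself was lower in every HS heart (log2 fold change -1.82, SE 0.26, adjusted p = 0.156 over 30933 transcripts). Up to 165 bases of Mir22hg exon are shared on the same strand with Tlcd2, a membrane protein gene. Tlcd2 had 1.5 CPM in sham and 1.33 in HS hearts (log2 fold change -0.17, adjusted p = 0.822). How reads were divided between the 2 genes is not given, so a part of Tlcd2 reads in the Mir22hg counts cannot be told apart.

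Mir17hg (ENSMUSG00000089726, chr14:115042879-115046727, plus strand), the host of the 6 hairpins with the seeds shown above, had 2.99, 2.73 and 3.13 CPM in sham hearts. In HS hearts 1, 2 and 3 it had 1.15, 0.434 and 1.52 CPM. The groups did not overlap, and HS heart 2 was the lowest, with 11 counts. The mean was 2.95 ± 0.206 CPM in sham and 1.04 ± 0.555 in HS hearts (log2 fold change -1.52, SE 0.40, adjusted p = 0.265). The file holds 1 transcript of this gene, so no isoform can differ from the gene total. Comparing HS heart 2 alone with the sham hearts gave -2.75 (adjusted p = 0.0118, with a range of 0.0118 to 0.656 over the alternatives).

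Mir142hg (ENSMUSG00000084796, chr11:87755577-87757270, plus strand) was the lowest of the tested microRNA hosts by CPM, which is not scaled to length. It had 28, 28 and 11 counts in sham hearts against 7, 5 and 7 in HS hearts, or 0.472 to 1.18 CPM against 0.197 to 0.356. The groups did not overlap, but sham heart 3 lay close to the HS hearts. The log2 fold change was -1.79 (SE 0.48, unadjusted p = 0.00638, adjusted p = 0.265). The 8 leukocyte markers of the list summed to 55.9 to 67 CPM in sham and 51.6 to 55.8 CPM in HS hearts. Of the 6 that could be tested, 1 was lower (background 4.76%) and 0 higher (background 8.83%) at an unadjusted p under 0.05. This was Ptprc, which encodes the leukocyte antigen CD45, at -0.39 on the log2 scale (adjusted p = 0.321). The other 5 tested markers ran from -0.49 (Cd68 of macrophages) to -0.01 (Csf1r of macrophages), and the median over the 6 was -0.32. Measured from the sham mean, the marker median was -0.24, -0.18 and -0.53 in HS hearts 1, 2 and 3. Mir142hg was at -1.49, -1.75 and -1.1 in the same hearts. Cd3e of T cells had at most 2 counts in any heart. The part of leukocyte number in the level of Mir142hg was not tested.

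The groups overlapped in the 2 microRNA hosts with the most counts. Mir99ahg (ENSMUSG00000090386, chr16:77236317-77773427, plus strand) had 13.5, 14.2 and 12.2 CPM in sham hearts and 14.2, 15.2 and 11.3 CPM in HS hearts. The HS hearts lay on both sides of the sham hearts, and the log2 fold change was 0.03 (SE 0.14, adjusted p = 0.93). Mir100hg (ENSMUSG00000074415, chr9:41327077-41716994, plus strand) had 19.9, 14.9 and 13.3 CPM in sham hearts and 21.4, 11.1 and 21.3 CPM in HS hearts. HS heart 2 was the lowest heart of all and the other HS hearts were the highest, and the log2 fold change was 0.16 (SE 0.27, adjusted p = 0.803). With HS heart 2 alone the difference of Mir100hg was -0.52, which turns its direction.

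Mir133a-1hg, on chromosome 18, hosts the muscle microRNAs miR-133a-1 and miR-1a-2 in introns and lies inside Mib1 on the other strand. It had 2.07, 2.69 and 2.49 CPM in sham hearts and 2.2, 2.33 and 1.22 CPM in HS hearts. Only HS heart 3 lay below the sham hearts (log2 fold change -0.32, SE 0.29, adjusted p = 0.622). The remaining microRNA hosts were too low for the fit. Mir181a-1hg had 5, 8 and 7 counts in sham hearts against 0, 3 and 0 in HS hearts, and Mir670hg had 13, 3 and 5 against 1, 2 and 2. In both the groups did not overlap, and an exact two-sided permutation test over hearts gave p = 0.1, the smallest p that 3 against 3 hearts allow. In Mir670hg the lowest sham heart had 3 counts and the highest HS heart 2, a gap too small to tell from counting error. Among all tested genes, every HS heart lay below every sham heart in 10.9%. Mir155hg, the host of a microRNA of activated immune cells, had 8 to 13 counts in sham and 7 to 13 in HS hearts (exact permutation p = 0.7).

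Among the snoRNA hosts, Snhg7 (ENSMUSG00000120369, chr2:26637176-26640244, minus strand), which carries Snora43 and the Snora17 shown above, had the smallest unadjusted p. It had 3.19, 2.69 and 2.75 CPM in sham hearts 1, 2 and 3. In HS hearts 1, 2 and 3 it had 0.433, 0.434 and 0.915 CPM. All HS hearts lay far below the sham hearts, with 11 to 18 counts against 64 to 80. The mean was 4.92-fold lower in HS (log2 fold change -2.30, SE 0.34, unadjusted p = 0.000195, adjusted p = 0.124). The adjusted p was 0.175, 0.0482 and 0.00563 without HS heart 1, 2 or 3, and 0.595, 0.595 and 0.528 without sham heart 1, 2 or 3. The difference was -2.71 with HS heart 2 alone (adjusted p = 0.0133). Over the alternatives the adjusted p ran from 6.95e-06 to 0.704 and the log2 fold change from -2.72 to -2.12.

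Snhg17 (ENSMUSG00000085385, chr2:158353700-158361580, minus strand) holds 3 unnamed snoRNAs that end in an ACA box. It had 4.74, 4.74 and 4.08 CPM in sham hearts and 2.67, 2.17 and 2.44 CPM in HS hearts. The HS hearts were close to each other and all below the sham hearts, at a log2 fold change of -0.90 (SE 0.18, unadjusted p = 0.00137, adjusted p = 0.194). Snhg3 (ENSMUSG00000085241, chr4:132348014-132353686, minus strand) carries Snora73a and Snora73b, RNAs that act in the cleavage of the ribosomal RNA precursor. It had 3.67, 3.11 and 2.88 CPM in sham hearts and 1.84, 1.78 and 2.54 CPM in HS hearts. HS heart 3 lay nearest to the sham hearts, and the log2 fold change was -0.65 (SE 0.23, unadjusted p = 0.0233, adjusted p = 0.313). Snhg3 shares up to 107 bases of exon with Rcc1, a chromatin-bound exchange factor for the Ran GTPase, which stood at -0.33 on the log2 scale (adjusted p = 0.444). Rcc1 had 4.94, 4.83 and 4.94 CPM in sham hearts and 4.55, 3.87 and 3.25 CPM in HS hearts, without overlap. Up to 311 bases of exon lie opposite the non-coding gene Gm17300 (-0.57, adjusted p = 0.496). A part of the reads of these genes in the Snhg3 counts cannot be told apart.

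Snhg20 (ENSMUSG00000086859, chr11:117076008-117078955, plus strand), which holds a small Cajal body RNA, had 2.87, 3.02 and 3.44 CPM in sham hearts. It had 1.98, 2.41 and 2.64 CPM in HS hearts. The groups did not overlap, but the difference was small (log2 fold change -0.41, SE 0.21, unadjusted p = 0.0849, adjusted p = 0.419).

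The 3 snoRNA hosts with the most counts were all C/D hosts, and in each of them the groups overlapped. Gas5 (ENSMUSG00000053332, chr1:161034422-161038539, plus strand), named for its accumulation in growth-arrested cells, carries the Snord47 shown above among 10 annotated snoRNAs (overlapping entries of Snord80 counted separately). It had 24.6, 23.4 and 22.3 CPM in sham hearts and 19.1, 15.3 and 33.4 CPM in HS hearts. HS hearts 1 and 2 lay below every sham heart and HS heart 3 above every one of them, so the mean difference was -0.06 on the log2 scale (SE 0.27, adjusted p = 0.933). With HS heart 2 alone against the sham hearts it was -0.62 (adjusted p = 0.0478, with a range of 0.0478 to 0.999 over the alternatives).

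Snhg1 (ENSMUSG00000108414, chr19:8723475-8726443, plus strand) likewise had HS hearts 1 and 2 below and HS heart 3 above every sham heart, with 6.5, 7.51 and 6.96 CPM in sham and 4.69, 6.32 and 8.74 CPM in HS hearts. Its log2 fold change was -0.09 (SE 0.23, adjusted p = 0.869). Slc3a2, an amino acid transporter subunit that starts 106 bases away on the other strand, had 16.3 CPM in sham and 23.4 CPM in HS hearts (log2 fold change 0.52, adjusted p = 0.356). Snhg14 (ENSMUSG00000100826, chr7:59307924-59975759, minus strand) spans 667836 bases with 208 annotated snoRNAs and runs into the Angelman syndrome gene Ube3a on the other strand. Exons of the 2 genes overlap by up to 1803 bases, and Ube3a had 136 CPM in sham and 127 CPM in HS hearts. The use of strand in counting is not given, so a part of Ube3a reads in the Snhg14 counts cannot be told apart. Snhg14 had 12.8, 10.7 and 13.4 CPM in sham hearts and 13.2, 9.52 and 9.61 CPM in HS hearts, and its log2 fold change was -0.18 (SE 0.17, adjusted p = 0.628).

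**Figure D2:**
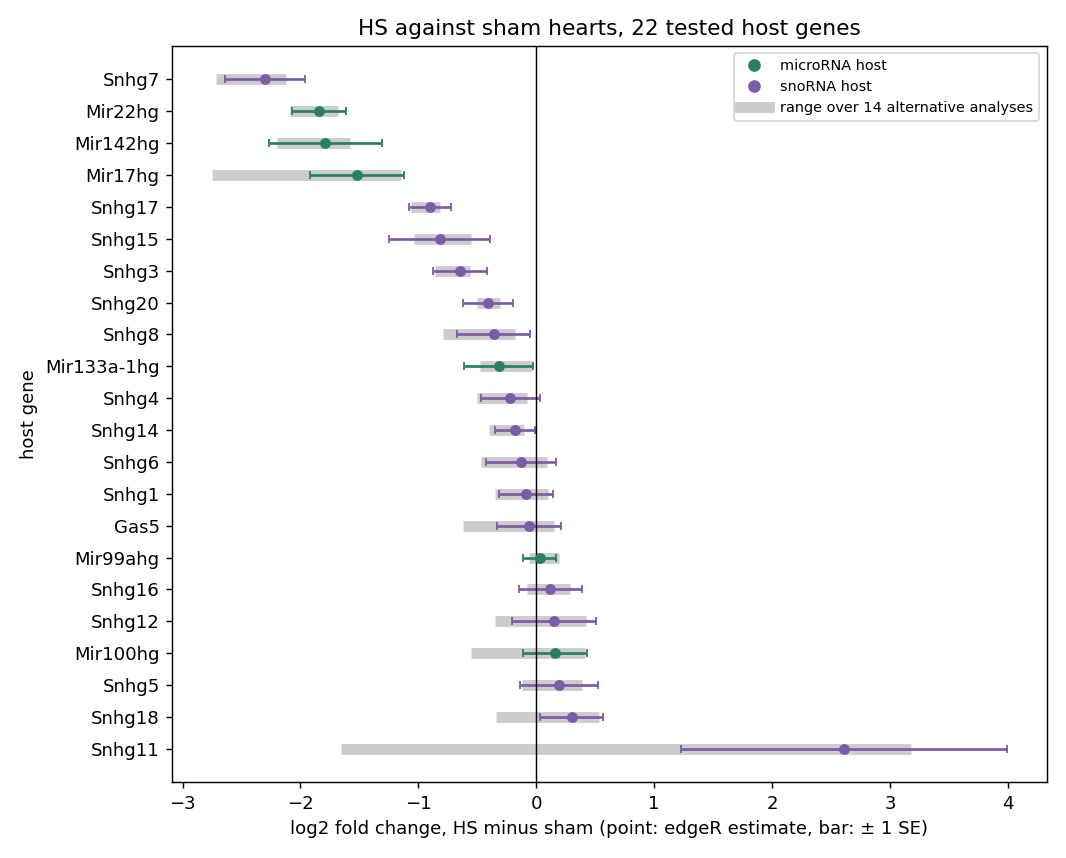
Log2 fold change of HS against sham hearts (x axis) for the 22 tested host genes (y axis), as the edgeR estimate with a bar of 1 standard error to each side, green for microRNA hosts and purple for snoRNA hosts. Grey bands span the estimates of 14 alternative analyses. The bands of the 12 lowest genes, from Snhg7 to Snhg14, lie below 0 and those of the other 10 cross it.

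The other tested snoRNA hosts had log2 fold changes from -0.82 (Snhg15) to 0.30 (Snhg18), with adjusted p from 0.43 to 0.86, and Snhg11 stood outside this range. With HS heart 2 alone against the sham hearts, the direction turned in Snhg18 (-0.34 against 0.30), Snhg12 (-0.14 against 0.15) and Snhg11 (-1.66 against 2.61). In the same comparison Snhg8 was at -0.74 against -0.36, at an unadjusted p of 0.0171 and an adjusted p of 0.29. Snhg11 is named here because its values were seen to stand apart. It is a host known for expression in neurons and had 12, 11 and 5 counts in sham hearts against 12, 3 and 134 in HS hearts. The difference came from HS heart 3 alone (log2 fold change 2.61, SE 1.38, adjusted p = 0.445). In that heart the 8 Schwann cell and neuron markers summed to 19.2 CPM against 4.3 to 8.62 CPM in the other hearts. Tubb3, a tubulin of neurons, had 64 counts there against 2 to 9, and Prph, a filament protein of peripheral neurons, had 44 against 1 in each other heart. The part of nerve tissue in the level of Snhg11 was not tested. Snhg10, with 3 to 11 counts in sham and 3 to 4 in HS hearts, was too low for the fit (exact permutation p = 0.3).

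Set side by side, the microRNA hosts had a median log2 fold change of -0.92 over 6 tested genes, the snoRNA hosts one of -0.16 over 16, and all tested genes one of 0.01. The microRNA hosts were not uniform, since 3 lay between -1.84 and -1.52 and the other 3 between -0.32 and 0.16. Measured from the sham mean, the median microRNA host stood at -0.71, -1.12 and -0.92 in HS hearts 1, 2 and 3. For the snoRNA hosts it was -0.49, -0.41 and 0.29, so in HS heart 3 the median of the snoRNA hosts lay above the sham mean and that of the microRNA hosts below it. In that heart 7 of 16 snoRNA hosts and 5 of 6 microRNA hosts lay below the sham mean. The microRNA median rests on few genes. It was -0.15 without HS heart 3, when 1 more low gene could be tested, and -0.32 when hosts under a mean of 1 CPM were left out. Without HS heart 3 the microRNA hosts exceeded the snoRNA hosts by 0.31, which turns the order of the classes.

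The snoRNA hosts were also set apart by the box type of the RNA they host. This split was made after the values were seen and carries no test. The 7 tested H/ACA hosts were Snhg7 (-2.30), Snhg17 (-0.90), Snhg15 (-0.82), Snhg3 (-0.65), Snhg8 (-0.36), Snhg4 (-0.22) and Snhg11 (2.61), and the 3 snoRNA hosts lower at an unadjusted p under 0.05 (Snhg7, Snhg17 and Snhg3) were among them. These are 3 of 7 H/ACA hosts and 0 of 7 C/D hosts, beside a background of 4.76%. The 7 C/D hosts lay between -0.18 and 0.30: Snhg14 (-0.18), Snhg6 (-0.13), Snhg1 (-0.09), Gas5 (-0.06), Snhg16 (0.12), Snhg5 (0.19) and Snhg18 (0.30). Snhg12, which holds 4 annotated H/ACA snoRNAs (overlapping entries of Snora16a counted separately) and 1 C/D snoRNA, had 0.15.

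The median of the H/ACA hosts was -0.65 and that of the C/D hosts -0.06. By heart, the H/ACA median was -0.74, -0.82 and -0.32 in HS hearts 1, 2 and 3, and the C/D median -0.27, -0.25 and 0.4. In HS heart 2, all 7 H/ACA hosts and 5 of 7 C/D hosts lay below the sham mean. In HS heart 3, 5 of 7 H/ACA hosts and 1 of 7 C/D hosts did. Over 14 alternatives the H/ACA median stayed between -0.86 and -0.56 and the C/D median between -0.26 and 0.15.

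**Figure D3:**
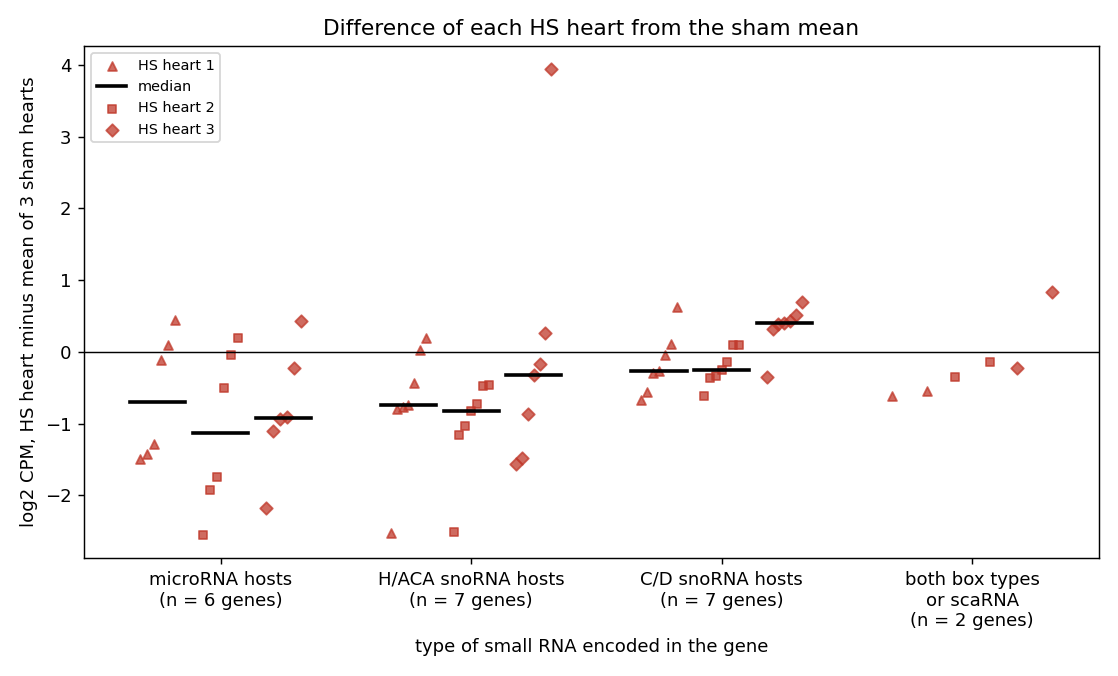
Difference in log2 CPM between each HS heart and the mean of the 3 sham hearts (y axis) for the tested host genes. The x axis splits them by name and, for snoRNA hosts, by the type of RNA they hold. Each point is 1 gene in HS heart 1 (triangle), 2 (square) or 3 (diamond), and black lines are medians. The H/ACA medians (-0.74, -0.82 and -0.32) lie below the C/D medians (-0.27, -0.25 and 0.4) in each HS heart, and the point near 4 is Snhg11 in HS heart 3.

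Isoforms were compared because a gene total can hide transcripts that move apart. Reads were divided among overlapping transcripts by the authors' estimate, so single transcripts are less certain than their gene. Of the 573 transcripts of the kept host genes, 51 could be tested, in 18 genes. At an unadjusted p under 0.05, 6 were lower (background 3.88%) and 1 was higher (background 5.73%), and after adjustment 0 passed in edgeR's test (background 0.00323% lower).

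In Snhg7, the transcript with the most counts, ENSMUST00000243577, had 46.33, 46.8 and 39.41 estimated counts in sham hearts against 0, 4.34 and 10.44 in HS hearts. Its share of the gene went from 63.8% in sham to 36.1% in HS hearts. In Snhg17, ENSMUST00000149667 had 37.39, 24.85 and 29.51 estimated counts in sham hearts and was listed at 0 in all 3 HS hearts. Another Snhg17 transcript, ENSMUST00000242851, was listed at 0 in all sham hearts and had 21.58, 8.51 and 0.97 in HS hearts. The second of these was too low for the fit and was picked for its values, and all 3 tested Snhg17 transcripts had log2 fold changes below 0.

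In Snhg12, 2 isoforms with opposite signs, picked for their values from 4 tested, stood beside a mean gene difference of 0.15. Neither isoform passed after adjustment. The gene total was uneven, at 2.49, 3.36 and 6.66 CPM in HS hearts 1, 2 and 3 against 3.95, 3.23 and 3.95 CPM in sham hearts. The part of the isoforms in the gene total was not tested. ENSMUST00000242168 had 54.15, 26.32 and 19.89 estimated counts in sham hearts against 2.67, 0.2 and 0 in HS hearts (log2 fold change -4.94, SE 1.08, unadjusted p = 0.00324, adjusted p = 0.271). ENSMUST00000153474 of the same gene had 13.52, 11.38 and 21.69 in sham and 26.29, 38.34 and 28.73 in HS hearts (log2 fold change 0.98, SE 0.45, unadjusted p = 0.0668, adjusted p = 0.552). In Gas5, ENSMUST00000159706 had 38.87, 34.12 and 26.99 in sham and 65.95, 50.9 and 75.62 in HS hearts, so that its share of the gene was 5.9% and 12.2% (log2 fold change 0.98, adjusted p = 0.462). It was the single host transcript counted above as higher.

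**Figure D4:**
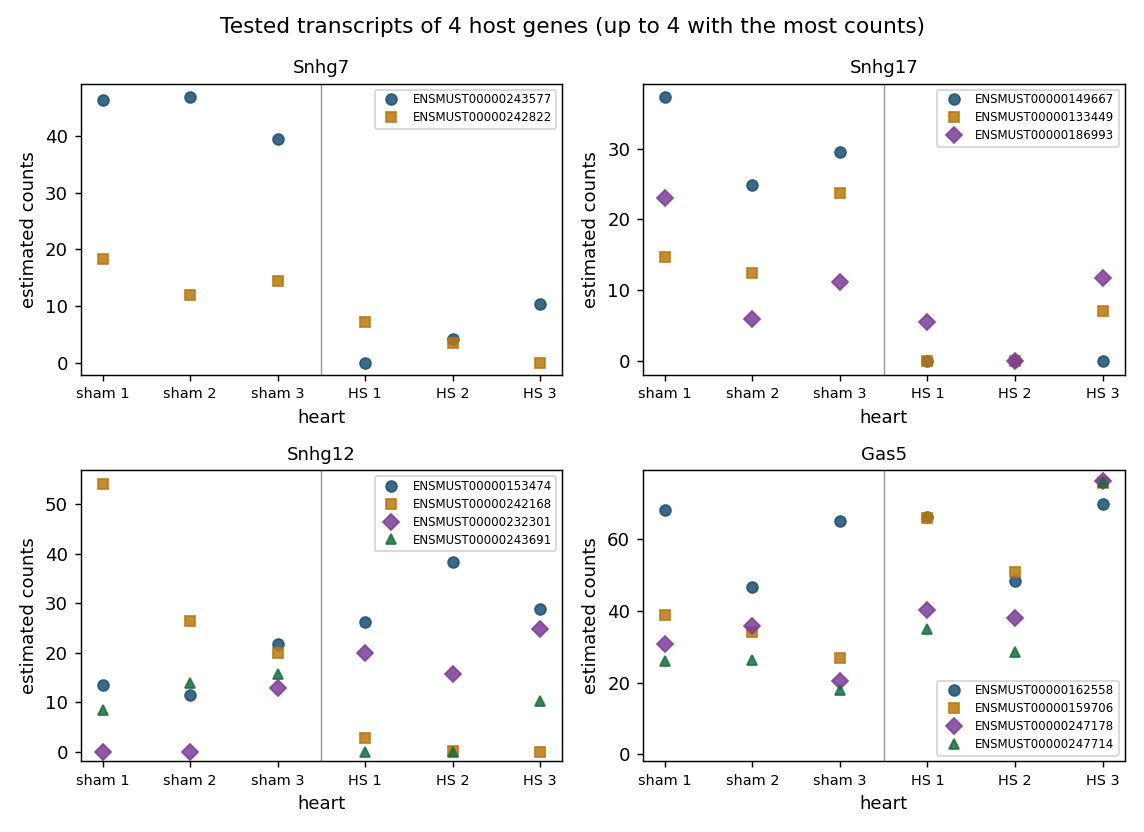
Estimated counts (y axis) of the tested transcripts of Snhg7, Snhg17, Snhg12 and Gas5 in each heart (x axis), up to 4 transcripts per gene, with sham hearts left and HS hearts right of the line. In Snhg12 ENSMUST00000242168 goes from 19.89 to 54.15 in sham hearts to at most 2.67 in HS hearts, while ENSMUST00000153474 lies at 11.38 to 21.69 in sham and at 26.29 to 38.34 in HS hearts.

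Genes that act on these hosts or on their products were counted by the same rule. Of the 25 tested genes of microRNA processing, 0 were lower (background 4.76%) and 3 higher (background 8.83%) at an unadjusted p under 0.05 (median 0.10). These were Tnrc6b, a partner of Argonaute, at 0.35 (adjusted p = 0.213), and the chaperone genes Hsp90aa1 at 2.05 (adjusted p = 0.254) and Hsp90ab1 at 0.71 (adjusted p = 0.303), which load Argonaute among many other clients. Of the 25 tested snoRNP proteins and assembly factors, only Znhit3, an assembly factor of box C/D particles, was lower (-0.57, adjusted p = 0.294) and 0 were higher. That count lay near the background of 4.76%, and the median was -0.09.

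Of the 20 genes of nonsense-mediated decay, which degrades many spliced snoRNA hosts, 0 were lower and 4 were higher at an unadjusted p under 0.05. These were Upf2 (0.51, adjusted p = 0.22), Upf3a (0.66, adjusted p = 0.302), Upf1 (0.24, adjusted p = 0.316) and Upf3b (0.34, adjusted p = 0.366), all core factors of the pathway. Upf2 had 572, 605 and 537 counts in sham hearts against 889, 772 and 765 in HS hearts, without overlap. The background was 8.83% higher and 4.76% lower over all tested genes. The median over the list was 0.09, and the 16 other members ran from -0.22 (Eif4a3) to 0.57 (Smg1).

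Protein-coding genes can also carry snoRNAs in their introns. Of 40 such genes tested, 1 was lower at an unadjusted p under 0.05 (Nol12, a nucleolar protein, at -0.36, adjusted p = 0.334) and 0 were higher, where the background was 4.76% and 8.83%, and their median was 0.00. Of 43 other tested genes that host microRNAs, 4 were lower (background 4.76%) and 4 higher (background 8.83%) at an unadjusted p under 0.05, with a median of 0.04, so the share of higher genes lay near the background.

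Among these other microRNA hosts, Dnm3os, a non-coding gene that carries miR-199a-2 and miR-214, counted 148, 91 and 130 in the sham and 20, 16 and 49 in the HS hearts. The groups did not overlap (log2 fold change -2.03, SE 0.52, adjusted p = 0.259). Slit3, a guidance factor gene that carries miR-218-2, had 108, 81 and 96 counts in sham and 553, 143 and 385 in HS hearts (1.93, SE 0.46, adjusted p = 0.254), with HS hearts 1 and 3, those with atrial signal, highest. Lpp, an adhesion protein gene that carries miR-28, had 0.72 (adjusted p = 0.244). HS hearts 1 and 3 were again highest, with 70.2, 47 and 76 CPM in HS hearts 1, 2 and 3 against 37, 40.4 and 39.6 CPM in sham hearts. Egfl7, the endothelial gene that carries miR-126, had -0.47 (adjusted p = 0.258). The myosin genes that carry heart muscle microRNAs overlapped between groups, with 0.27 for Myh6 (miR-208a), 0.65 for Myh7 (miR-208b) and -0.14 for Myh7b (miR-499), at adjusted p from 0.423 to 0.834. The rise of Myh7 came from HS heart 3 alone. Myh7 had 56.8, 63.8 and 61.1 CPM in sham hearts and 47.2, 44.9 and 193 CPM in HS hearts 1, 2 and 3.

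The MYC family was included because MYC proteins are known to activate Mir17hg. Mycn had 98, 107 and 54 counts in sham hearts against 26, 29 and 7 in HS hearts, without overlap (log2 fold change -2.10, SE 0.43, adjusted p = 0.194). Mxd1, which encodes a repressor that competes with MYC, had 101, 96 and 105 counts in sham and 169, 202 and 390 in HS hearts (1.42, SE 0.44, adjusted p = 0.294). Of the 7 tested members, these were the 1 lower (background 4.76%) and the 1 higher (background 8.83%) at an unadjusted p under 0.05. The other 5 ran from -0.11 (Mnt) to 0.44 (Mxd4), with Myc itself at -0.01, and the median of the family was 0.20.

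RefSeq promoter windows (250 bases before to 50 after a start, GRCm38.p6) that hold the annotated start of the gene were at hand for 14 of the 26 host genes, 13 of them snoRNA hosts and the other Mir22hg. The heat shock element core TTCNNGAA, searched on both strands, was in 1 of 14 (Snhg5) against 8.52% of 32851 promoters of the same length. A second heat shock element core, GAANNTTC, was in 0 against 7.86%. The AP-1 motif TGACTCA was in 0 of 14 against 5.2%, and the E-box CACGTG in 1 (Snhg15) against 7.15%. The TATA box TATAAA was in 5 of 14 against 13.6% of all promoters. These were Snhg7, Snhg3, Snhg8, Snhg1 and Snhg5, of which 3 are H/ACA and 2 are C/D hosts. The CCAAT box was in 5 of 14 against 37.4%, and the CRE motif TGACGTCA in 1 (Snhg15) against 1.79%. A match or its absence describes these letters only.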

How the data were processed

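The 3 sham and 3 HS hearts each gave 1 poly(A)-selected library, described in the labels as strand-specific. The authors used fastp for cleaning and Hisat2 for alignment, and the file they deposited holds estimated counts for each transcript without any normalization. The genome build in the submitters' notes is mm10. How reads were assigned to transcripts, with which annotation and with what use of strand, and the tool versions: not given in the sources used here. Of the deposited values, 30.3% were not whole.

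Estimated counts of 149132 transcripts were summed per gene ID and rounded. Genes passing edgeR's filterByExpr (minimum count 10, minimum total 15) were tested with the quasi-likelihood test of edgeR 4.0.16 (R 4.3.3), with TMM scaling, robust estimation, group as the only term and Benjamini-Hochberg adjustment over 14717 genes, and transcripts likewise over 30933. The biological coefficient of variation was 0.204. CPM are on the TMM scale, and log2 CPM used a prior count of 2. Alternatives were DESeq2 1.42.0 (the study's tool), limma-voom 3.58.1, other scalings, another filter, the replicate number as a block, hearts left out, an atrial marker covariate, hosts of at least 1 CPM, and the study's thresholds (unadjusted p under 0.05, absolute log2 fold change over 1). The steps were tested on simulated counts. Counting limits cover counting error only.

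Described one by one were hosts with an unadjusted p under 0.05, hosts of at least 1 CPM whose groups did not overlap, and the 3 of each class with the most CPM. Mir133a-1hg, Snhg11 and the 4 hosts too low for the fit fall outside this rule and are also given, chosen after their values were seen. Members, lists and tests were chosen with earlier results of these data known. Positions and hosted RNAs come from GENCODE vM21 and, for Snhg7, RefSeq (both GRCm38, the build of mm10), and 5296 genes of the file (0.311% of counts) are not in vM21. Same-numbered hearts did not deviate together (correlations -0.06, 0.13 and 0.01), and nothing in the labels says that the hearts differ in litter, day or batch. The p-values measure the spread between these hearts.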

Additional observations from a re-analysis of the deposited data

How the results depend on the processing

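Of the 22 tested host genes, 12 kept the sign of their log2 fold change in all 14 alternatives and 10 did not. Over all tested genes, 9 passed the adjusted threshold, against 16 by library size only, 351 with DESeq2, 129 with HS heart 2 alone and 2 to 287 when each heart was left out in turn. The number of host genes lower after adjustment was 0, against 4 with DESeq2, 1 with the replicate number as a block (Mir22hg, adjusted p = 0.0404, 1 of 9 genes called in that fit), 4 with HS heart 2 alone and 0 to 2 when each heart was left out. Host genes higher at an unadjusted p under 0.05 went from 0 to at most 2 when HS heart 1 or 2 was left out. At the thresholds of the study they went from 0 to at most 1. The shares of all tested genes in those fits are not given, so these counts have no background beside them. Host genes lower at the thresholds of the study were 4 with all hearts (background 0.707%). The median of the microRNA hosts (-0.92) was -1.54 with every gene of 10 counts, -1.19 with HS heart 2 alone, -1.28 with the atrial covariate, -0.32 with hosts of at least 1 CPM and -1.03 to -0.15 when each heart was left out. Its difference from the snoRNA hosts was -1.34 with every gene of 10 counts, -0.19 with hosts of at least 1 CPM and -0.97 to 0.31 when each heart was left out. The cause of these shifts was not tested, except that a looser filter and some of the left-out hearts add low genes to the microRNA hosts. With HS heart 2 alone, the spread of the single HS heart is taken from the sham hearts. Hosts under 20 counts in a group, such as Mir142hg in HS hearts, are limited by depth.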
